A study of Macaca fascicularis with 32 samples.

Results

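The genes described are the subunits, activators and assembly factors of the proteasome. They were taken as every gene whose symbol starts with PSMA, PSMB, PSMC, PSMD, PSME, PSMF or PSMG followed by a digit, without PSMB8 and PSMB9. The rule found 45 of the 22316 genes listed. They carry 44 symbols, since PSMA8, a germline form of an alpha subunit, is listed under 2 gene identifiers. PSMC3IP matches the rule by its letters alone, because it codes for a recombination protein and is no part of the proteasome. PSMC6, PSMD9 and PSMG2 have no row under those symbols and were not analysed here.

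The proteasome degrades proteins that carry ubiquitin chains. Its core particle, the 20S, is a barrel of alpha rings that gate the entry and beta rings that hold the catalytic sites PSMB5, PSMB6 and PSMB7. The 19S cap binds ubiquitin, removes it and unfolds the substrate, with an ATPase base (PSMC) and a lid (PSMD), and other activators can take its place: the interferon-inducible 11S ring of PSME1 and PSME2, PSME3 in the nucleus, and PSME4 (PA200). The PSMG chaperones assemble the alpha ring. Slow clearance of misfolded protein by this machine has long been studied in Parkinson's disease, in which dopamine neurons of the midbrain die.

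Nuclei came from the substantia nigra (SN) of cynomolgus macaques, which holds those dopamine neurons, and from their striatal targets, putamen (PUT) and caudate nucleus (CN). PD animals modelled Parkinson's disease after an adeno-associated virus carrying α-synuclein, a presynaptic protein that aggregates in that disease, was given together with poly(ADP-ribose). CT animals were the controls. The vector's promoter, the injection site, the interval after injection, the animals' ages and what CT animals received are not given in the sources used here. The labels list 4 PD and 4 CT samples for SN, 4 PD and 8 CT samples for PUT, and 4 PD and 8 CT samples for CN.

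The counts came as 6 matrices, a PD and a CT matrix per region, in which barcodes are not assigned to labelled samples, so a matrix was treated as 1 library. The differences therefore have no replicate check and no test, and treatment cannot be told apart from the animals or the library. All intervals are at 95% and cover counting error only. The libraries held 7702 to 10389 barcodes and 18692617 to 36723856 unique molecular identifiers (UMIs, single captured RNA molecules). After filters, 52744 of 56659 barcodes were kept, and any 2 libraries shared 14 to 38 barcode sequences. Clusters were made without the proteasome genes and named from marker genes, so each class is called "-like". In 70 of 102 clusters, a single library supplied over 50% of the nuclei. Myelin markers led the oligodendrocyte-like nuclei, where the 10 markers summed to 15574 CPM (counts-per-million units, over all UMIs of the class) in SN PD and 18731 CPM in SN CT. TH, SLC6A3 and the other dopaminergic markers (8 in all) summed to 2245 CPM in SN PD and 2340 CPM in SN CT dopaminergic neuron-like nuclei, with none at 0.

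The summed level of the 45 genes differed between cell classes within every library. It was highest in microglia or macrophage-like nuclei, at 1911 CPM in SN PD and 1927 CPM in SN CT, 1949 CPM in PUT PD and 2159.7 CPM in PUT CT, and 1757 CPM in CN PD and 2199 CPM in CN CT. Direct and indirect spiny projection neuron (SPN)-like nuclei, the projection neurons of the striatum, had the lowest values among PUT and CN classes, at 1111 to 1217 CPM in PD and 1275 to 1319 CPM in CT. Astrocyte-like nuclei held 1526 to 1559 CPM in PD and 1676 to 1799 CPM in CT, and oligodendrocyte-like nuclei 1467 to 1642 CPM in PD and 1561 to 1758 CPM in CT. Dopaminergic neuron-like nuclei held 1395 CPM in SN PD and 1298 CPM in SN CT. The intervals of microglia or macrophage-like and astrocyte-like nuclei overlapped in SN CT and CN PD, and those of direct and indirect SPN-like nuclei overlapped in each striatal library. Oligodendrocyte precursor-like nuclei lay close to them, at 1231 CPM in PUT PD and 1349 CPM in PUT CT, and 1240.2 CPM in CN PD and 1334 CPM in CN CT. Their intervals overlapped those of both SPN-like classes in PUT PD, PUT CT and CN CT, and that of the direct SPN-like nuclei in CN PD. The order of the classes ran roughly against their depth: the median nucleus held 766 to 989 UMIs among microglia or macrophage-like nuclei and 4165 to 5526 UMIs among direct and indirect SPN-like nuclei. After every nucleus was thinned to 800 UMIs, microglia or macrophage-like nuclei held 1815 to 2076 CPM and the direct and indirect SPN-like nuclei 1116 to 1369 CPM. Thinning kept 335 of 525 (SN PD), 384 of 678 (SN CT), 188 of 405 (PUT PD), 165 of 352 (PUT CT), 261 of 355 (CN PD) and 71 of 188 (CN CT) microglia or macrophage-like nuclei.

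**Figure D1:**
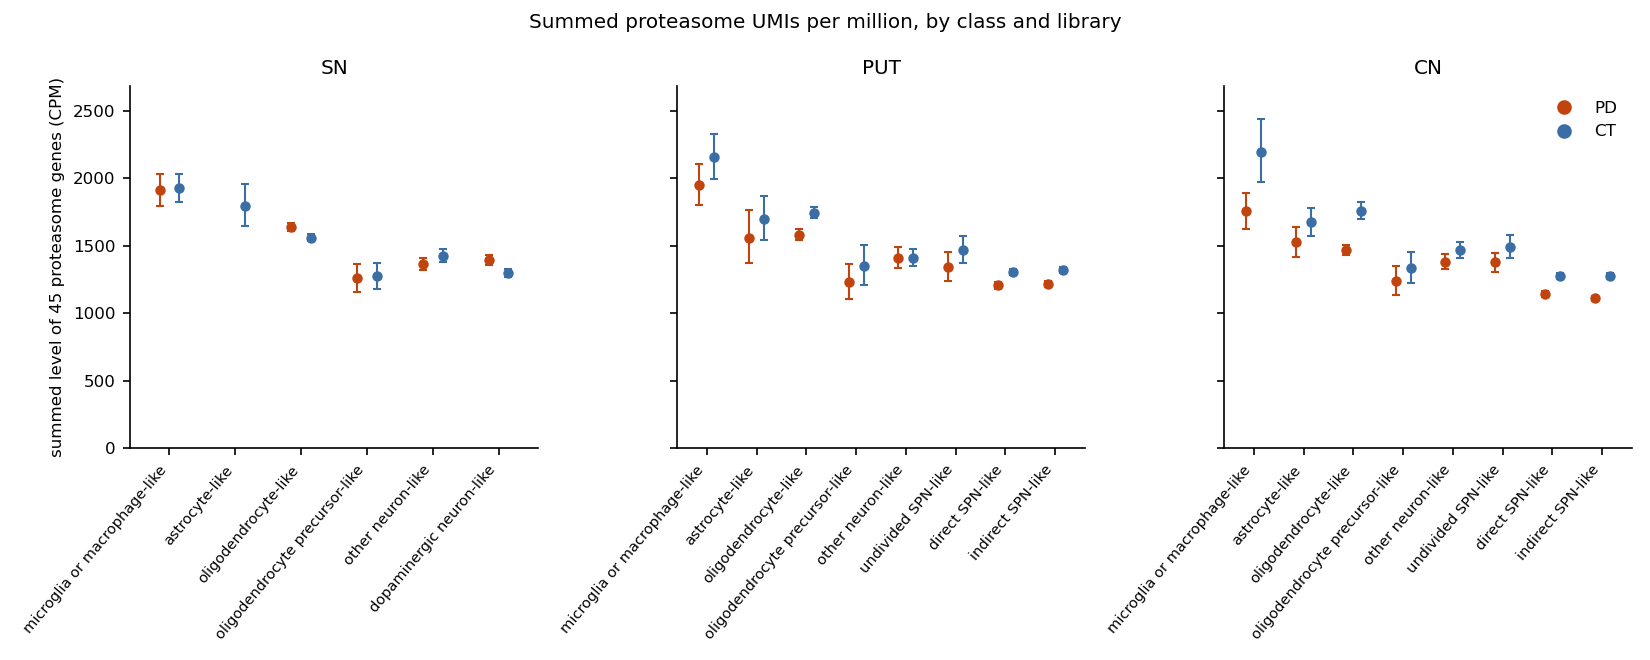
Summed level of the 45 proteasome genes in CPM (vertical axis, from 0) for each marker-defined class (horizontal axis) in SN, PUT and CN, with PD in orange left of CT in blue. Points are sums over the nuclei of 1 library and bars are exact Poisson intervals at 95%. Microglia or macrophage-like nuclei lie at the top, between 1757 and 2199 CPM, and PD lies below CT in all 8 classes of PUT and CN. Astrocyte-like nuclei of SN PD, with 78 nuclei, are not shown.

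PSMA1, an alpha ring subunit, was the member whose level differed most between classes by the median over libraries. It gave 13.5% (SN PD) to 24.2% (PUT CT) of the members' UMIs in microglia or macrophage-like nuclei. It reached 258 CPM in SN PD and 442 CPM in SN CT, 409 CPM in PUT PD and 524 CPM in PUT CT, and 345 CPM in CN PD and 462 CPM in CN CT microglia or macrophage-like nuclei. In oligodendrocyte-like nuclei of the same libraries PSMA1 lay between 22.1 and 31.7 CPM, and in direct and indirect SPN-like nuclei between 17.3 and 22.6 CPM. The class with the most PSMA1 exceeded the class with the least by 8.16-fold (SN PD) to 30.3-fold (PUT CT). The median over the 6 libraries, 20.9-fold, was the largest of any member with at least 200 UMIs in a library, while the other alpha subunits reached at most 8.11-fold (PSMA2 in PUT CT). In SN PD, PSME1 differed more than PSMA1, by 14.2-fold, and PSME1 reached 200 UMIs in only 2 libraries. Without PSMA1, the sum of microglia or macrophage-like nuclei lay below that of oligodendrocyte-like nuclei in SN CT (1485 against 1538 CPM), PUT PD (1540 against 1559 CPM), PUT CT (1636 against 1723 CPM) and CN PD (1413 against 1442 CPM). It stayed above in SN PD (1652 against 1611 CPM) and CN CT (1736 against 1728 CPM). No intervals were computed for the sums without PSMA1. With PSMA1, the interval of CN CT microglia or macrophage-like nuclei ran from 1975 to 2441 CPM. The order of these classes without PSMA1 is therefore not resolved.

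PSME4, the cap that binds the core in place of the 19S, had another pattern. It stood at 348 CPM in PUT PD and 375 CPM in PUT CT, and at 365 CPM in CN PD and 374 CPM in CN CT in the undivided SPN-like nuclei, which the markers assigned to neither pathway. Direct and indirect SPN-like nuclei held 158 to 190 CPM in PD and 188 to 223 CPM in CT of the same regions. PSME1, which forms the interferon-inducible ring with PSME2, held 18.3 to 58.7 CPM in PD and 16.3 to 43.7 CPM in CT microglia or macrophage-like nuclei. In direct and indirect SPN-like nuclei PSME1 held 1.78 to 2.34 CPM in PD and 0.806 to 2.65 CPM in CT. PSME4, PSMD14, the deubiquitinase of the lid, and PSMD1, the scaffold of the base, gave 34.2% of the 207781 UMIs of all members, so sums over the members lean on these genes.

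**Figure D2:**
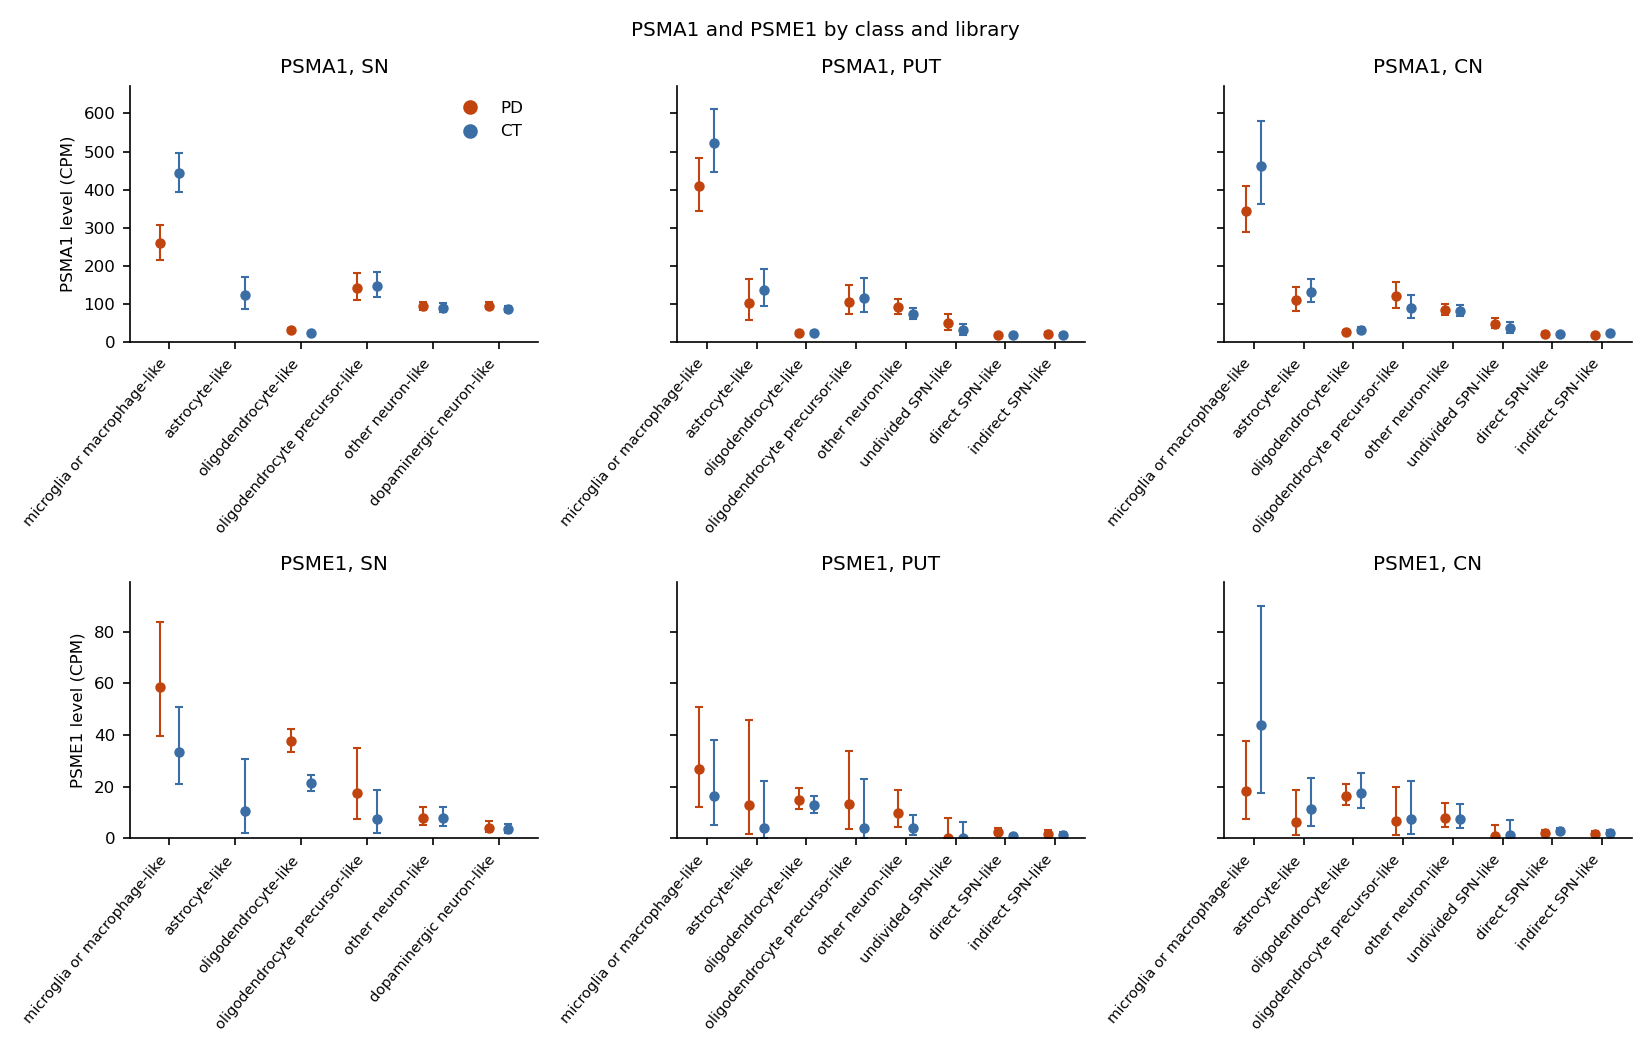
Levels of PSMA1 (top) and PSME1 (bottom) in CPM (vertical axes, from 0) by class and region, with PD in orange left of CT in blue. Points are sums over the nuclei of 1 library and bars are exact Poisson intervals at 95%. PSMA1 stands above 250 CPM in microglia or macrophage-like nuclei of all 6 libraries, and PSME1 is higher in SN PD than in SN CT oligodendrocyte-like nuclei, at 37.6 against 21.2 CPM.

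PD was compared with CT in 21 pairs of a class and a region with at least 100 nuclei in both libraries. The pairs of a region share its 2 libraries and are not independent of each other. In SN the sum was slightly higher in PD dopaminergic neuron-like nuclei (264 nuclei in PD and 350 in CT), with a ratio of PD over CT of 1.07 (1.04 to 1.11), and in oligodendrocyte-like nuclei (5791 in PD and 6684 in CT), with 1.052 (1.03 to 1.08). The oligodendrocyte-like ratio was 0.990 without PSME4, PSMD14 and PSMD1 and 1.11 without PSMG4, so its direction depends on a few abundant members. In these SN oligodendrocyte-like nuclei the 7 neuron markers summed to 416 CPM in PD and 320.1 CPM in CT, higher in PD for 7 of 7, and their part in the ratio was not tested. Other neuron-like nuclei of SN gave 0.959 (0.916 to 1.004), oligodendrocyte precursor-like nuclei 0.990 (0.884 to 1.11) and microglia or macrophage-like nuclei 0.991 (0.911 to 1.08). All 16 pairs of PUT and CN had a ratio below 1, and 15 of 16 did relative to the median gene. In CN the median nucleus was deeper in PD in each class, with 5437 UMIs in PD and 4180 UMIs in CT direct SPN-like nuclei. In PUT direct SPN-like nuclei it held 4330 UMIs in PD and 4793.5 UMIs in CT, and in SN oligodendrocyte-like nuclei 1078 and 1157 UMIs. After thinning to 800 UMIs, 19 of the 21 ratios stayed within their intervals, and the part of depth was not otherwise tested. Stratified by cluster, CN other neuron-like nuclei gave 1.01. The ratios with an interval below 1 were those of direct SPN-like (0.925), indirect SPN-like (0.923) and oligodendrocyte-like nuclei (0.905) in PUT, and of direct SPN-like (0.896), indirect SPN-like (0.871), undivided SPN-like (0.922), oligodendrocyte-like (0.835) and microglia or macrophage-like nuclei (0.799) in CN. In CN microglia or macrophage-like nuclei the median of the 5 measured members was 0.07 on the log2 scale. In the PUT oligodendrocyte-like nuclei, markers of neurons were lower along with the sum: the 7 neuron markers summed to 434 CPM in PD and 586 CPM in CT, with 2 higher in PD, the 6 direct SPN markers to 68.5 CPM in PD and 152 CPM in CT, with 2 higher, the 4 indirect SPN markers to 92.8 CPM in PD and 194 CPM in CT, with 0 higher, and the 9 interneuron markers to 67.4 CPM in PD and 154 CPM in CT, with 3 higher. In those of CN the neuron markers summed to 872 CPM in PD and 707 CPM in CT, with 3 of 7 higher in PD, while the direct SPN, indirect SPN and interneuron lists were lower in PD, at 90.1, 118 and 60.1 CPM in PD and 148, 188 and 126 CPM in CT. The part of these RNAs in the ratios was not tested. The undivided SPN-like nuclei of PD and CT fell in different clusters. In CN one cluster held 197 PD and 7 CT nuclei and another 5 PD and 195 CT nuclei. In PUT one held 104 PD and 1 CT nuclei and another 4 PD and 104 CT nuclei. In this class cluster and treatment cannot be told apart. Most direct and indirect SPN-like nuclei were split nearly as far. In CN, the main direct SPN-like clusters held 1519 PD and 34 CT, and 31 PD and 1895 CT nuclei. The main indirect ones held 1470 PD and 22 CT, and 26 PD and 1782 CT. In PUT the direct ones held 971 PD and 32 CT, and 55 PD and 1319 CT. The indirect ones there held 1116 PD and 33 CT, and 74 PD and 1459 CT. The main CN oligodendrocyte-like clusters held 2807 PD and 234 CT (ratio 0.972), and 423 PD and 1452 CT (0.818). Sum and median pointed in opposite directions in 7 of the 21 pairs. In CN direct and indirect SPN-like nuclei the median of all genes was itself lower in PD, at -0.15 for each on the log2 scale, and relative to that median the sums were 0.992 and 0.967.

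**Figure D3:**
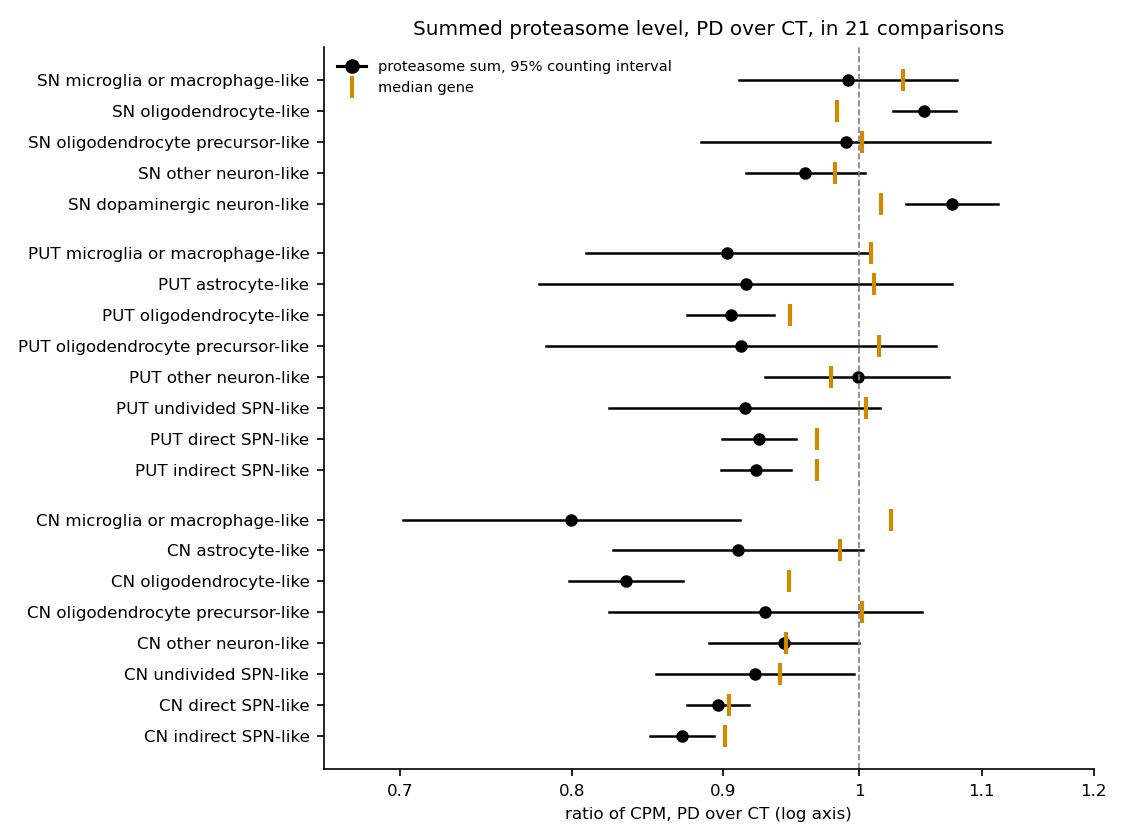
Ratio of the summed proteasome level, PD over CT (horizontal axis, logarithmic), for 21 pairs of a region and a class (rows). Black points are ratios with exact conditional binomial intervals at 95%, and orange ticks give the ratio of the median gene. SN dopaminergic neuron-like and oligodendrocyte-like nuclei lie above 1, at 1.07 and 1.052, and all 16 points of PUT and CN lie below 1.

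Single members were compared where a gene held at least 50 UMIs over both libraries of a pair, on a log2 scale with 0.5 UMI added, and counted as higher or lower at a log2 ratio of 0.5 or more in size (the fold). A single value in parentheses after a pair of levels is the log2 ratio. In all, 41 symbols were measured in at least 1 pair, and PSMA8 (both identifiers), PSMB11 and PSMD10 in none. In SN dopaminergic neuron-like nuclei 2 of 39 measured members were higher and 2 lower, against 9.57% and 8.33% of all genes, and the members' median was 0.12 against 0.02 for all genes. In SN oligodendrocyte-like nuclei 5 of 41 were higher (9.65% of all genes) and 1 lower (12.4%). In SN other neuron-like nuclei 0 of 31 were higher (6.29%) and 3 lower (9.71%). In PUT, direct SPN-like nuclei had 0 of 39 higher (6.76%) and 6 lower (11.7%), indirect SPN-like nuclei 1 of 40 higher (7.02%) and 8 lower (11.4%), and oligodendrocyte-like nuclei 0 of 40 higher (6.63%) and 8 lower (17.7%). In CN, direct SPN-like nuclei had 0 of 41 higher (4.25%) and 6 lower (17.9%), and indirect SPN-like nuclei 0 of 39 higher (4.81%) and 7 lower (18.0%). CN oligodendrocyte-like nuclei had 1 of 38 members higher (7.22%) and 14 lower (16.4%). The lower ones were 36.8% of the measured members, and the median was -0.30 against -0.08 for all genes.

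The other 12 pairs measured 4 to 25 members. In SN, oligodendrocyte precursor-like nuclei had 1 of 6 members higher (8.38% of all genes) and 1 lower (10.1%), and microglia or macrophage-like nuclei 4 of 12 higher (18.0%) and 2 lower (14.1%). In PUT, 0 of 5 were higher (10.2%) and 0 lower (10.1%) in undivided SPN-like nuclei, 1 of 21 higher (7.26%) and 0 lower (10.6%) in other neuron-like nuclei, 1 of 4 higher (9.54%) and 0 lower (9.54%) in oligodendrocyte precursor-like nuclei, 0 of 4 higher (11.7%) and 1 lower (11.8%) in astrocyte-like nuclei, and 0 of 6 higher (12%) and 1 lower (11.2%) in microglia or macrophage-like nuclei. In CN, 2 of 12 were higher (7.28%) and 3 lower (15.6%) in undivided SPN-like nuclei, 0 of 25 higher (5.17%) and 3 lower (14.7%) in other neuron-like nuclei, 0 of 5 higher (8.20%) and 0 lower (10.9%) in oligodendrocyte precursor-like nuclei, 1 of 9 higher (9.24%) and 1 lower (13.2%) in astrocyte-like nuclei, and 0 of 5 higher (15.5%) and 1 lower (11.2%) in microglia or macrophage-like nuclei. With so few members measured, these shares say little about the set.

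**Figure D4:**
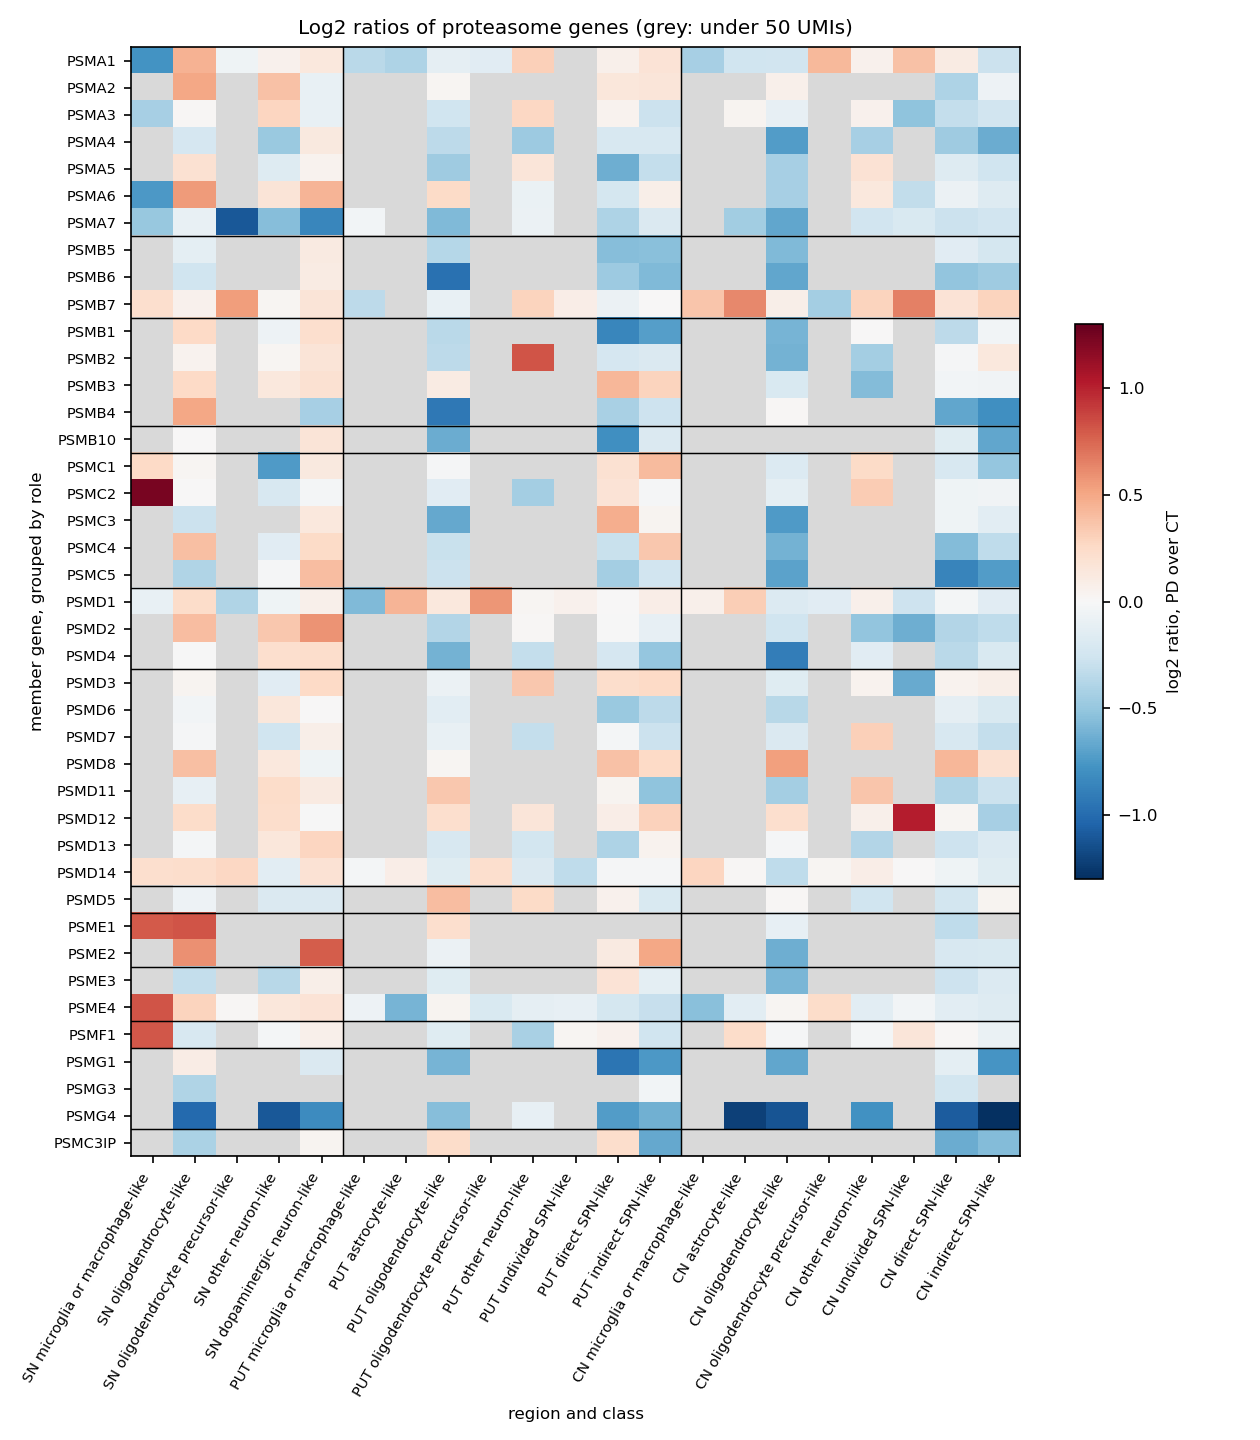
Log2 ratio of PD over CT (colour, red higher and blue lower in PD) for the 41 measured symbols (rows, grouped by role and divided by lines) in 21 pairs of a region and a class (columns). Grey marks pairs with fewer than 50 UMIs. The PSMG4 row is blue in all 12 measured pairs, down to -1.29 in CN indirect SPN-like nuclei, and the column of CN oligodendrocyte-like nuclei is blue for most members.

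The largest and most frequent difference among the members was in PSMG4 (PAC4), which pairs with PSMG3 to place alpha subunits during assembly of the core. PSMG4 stood at 21.5 CPM in SN PD and 37.9 CPM in SN CT dopaminergic neuron-like nuclei (log2 ratio -0.81). In other neuron-like nuclei it held 26.2 CPM in SN PD and 56.2 CPM in SN CT (-1.10). In oligodendrocyte-like nuclei, where it was highest, it held 70.3 CPM in SN PD and 141 CPM in SN CT (-1.01), from 513 and 1298 UMIs. The SN intervals of PD and CT did not overlap in any of these classes.

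The striatal libraries showed the same gene lower in PD. In PUT, PSMG4 held 38.8 CPM in PD and 64.4 CPM in CT direct SPN-like nuclei (log2 ratio -0.73), 45.8 CPM in PD and 70.7 CPM in CT indirect SPN-like nuclei (-0.62), and 49.7 CPM in PD and 73.1 CPM in CT oligodendrocyte-like nuclei (-0.55). In CN, PSMG4 held 27.1 CPM in PD and 57.4 CPM in CT direct SPN-like nuclei (-1.08), 24.6 CPM in PD and 60.4 CPM in CT indirect SPN-like nuclei (-1.29), and 37.4 CPM in PD and 81.5 CPM in CT oligodendrocyte-like nuclei (-1.12). CN other neuron-like nuclei held 25.2 CPM in PD and 43.6 CPM in CT (-0.79), and CN astrocyte-like nuclei 32.3 CPM in PD and 76.6 CPM in CT (-1.21). PUT other neuron-like nuclei were the pair with no clear difference, at 31.5 CPM in PD and 34.2 CPM in CT (-0.11). PSMG4 thus passed the fold in 11 of 12 measured pairs, where 8.33% to 18.0% of all genes were lower by that much. Thinned to 800 UMIs, the pair of dopaminergic neuron-like nuclei gave a log2 ratio of 0.70. These nuclei held a median of 14359 UMIs in PD and 14261 UMIs in CT before thinning. Few of their 83 (PD) and 197 (CT) PSMG4 UMIs were therefore left, and the thinned ratio is imprecise.

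PSMG4 was also lower within clusters. A cluster was taken separately in each region where it held at least 20 nuclei of each library and 20 UMIs of the gene. Of 42 such combinations of cluster and region, the ratio of PD over CT was below 1 in 42. The interval lay below 1 in 21, and the median was 0.515. The combinations of a region share its 2 libraries and the nuclei of the class values, so they are not replicates. For comparison, PSMD14 was below 1 in 27 of 58 such combinations, with a median of 1.01. The other chaperones were sparser. PSMG1 (PAC1), which dimerises with PSMG2, was lower in 5 of 8 pairs, beside 8.33% to 18.0% of all genes across the 21 pairs. Among them were PUT direct SPN-like nuclei, with 2.81 CPM in PD and 5.53 CPM in CT. PSMG3 passed no fold in 3 pairs, with log2 ratios from -0.39 to -0.04. SLC22A23, a gene next to PSMG4 in the RefSeq gene order of the T2T-MFA8v1.1 assembly, was lower in 0 of 19 pairs and had a median log2 ratio of 0.18.

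**Figure D5:**
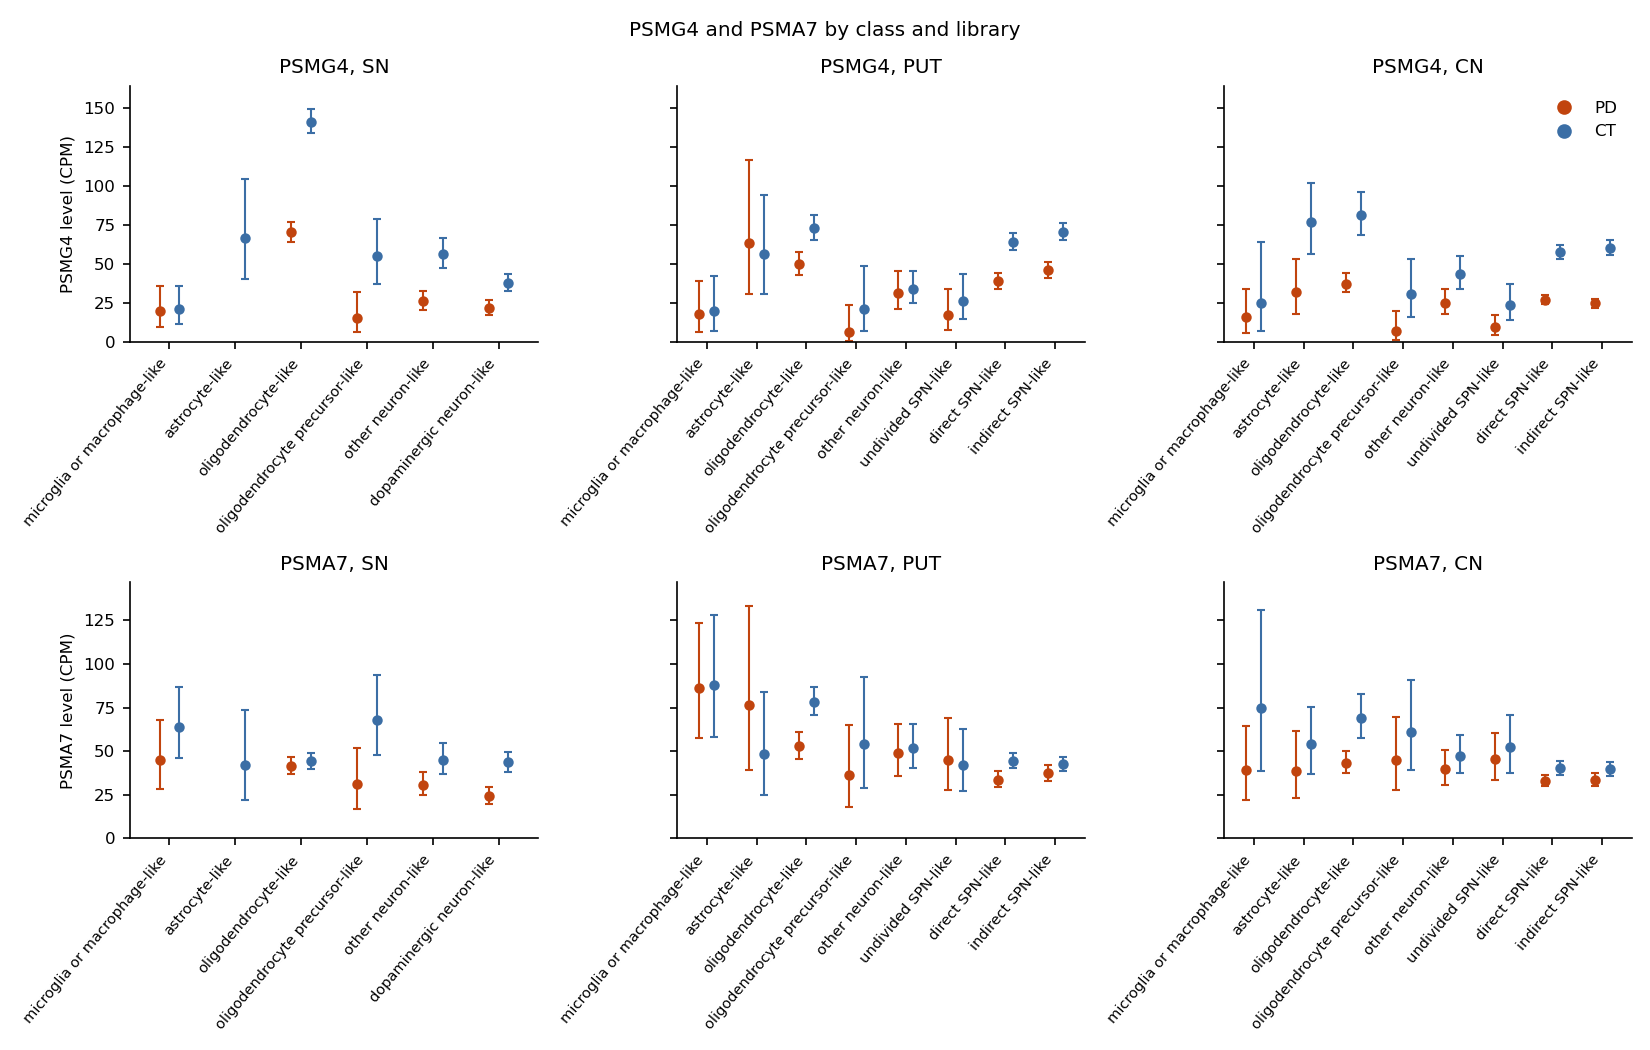
Levels of PSMG4 (top) and PSMA7 (bottom) in CPM (vertical axes, from 0) by class and region, with PD in orange left of CT in blue. Points are sums over the nuclei of 1 library and bars are exact Poisson intervals at 95%. PSMG4 reaches 70.3 CPM in SN PD and 141 CPM in SN CT oligodendrocyte-like nuclei, and PSMA7 reaches 24.1 CPM in SN PD and 43.5 CPM in SN CT dopaminergic neuron-like nuclei.

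Among alpha ring subunits, PSMA7 was lower in PD in all 16 pairs where it was measured, with an interval below 1 in 8. PSMA7 was lower by more than the fold in 5, beside 8.33% to 18.0% of all genes lower by the fold across the 21 pairs. It held 24.1 CPM in PD and 43.5 CPM in CT dopaminergic neuron-like nuclei (log2 ratio -0.85), 30.7 CPM in PD and 45.1 CPM in CT other neuron-like nuclei of SN (-0.55), and 41.4 CPM in PD and 44.1 CPM in CT oligodendrocyte-like nuclei of SN (-0.09). In oligodendrocyte-like nuclei of PUT it held 52.8 CPM in PD and 78.4 CPM in CT (-0.57), and in those of CN 43.3 CPM in PD and 69.2 CPM in CT (-0.68). Within clusters, taken as for PSMG4, the PSMA7 ratio was below 1 in 37 of 46 combinations, with an interval below 1 in 7. Of the genes next to PSMA7 in the gene order, MTG2 had a negative log2 ratio in 12 of 14 pairs and SS18L1 in 10 of 14. LSM14B had one in 6 of 8 and TAF4 in 5 of 9. The remaining alpha subunits varied more between classes. PSMA6 was higher in SN oligodendrocyte-like nuclei, at 43.6 CPM in PD and 29.7 CPM in CT, and lower in those of CN, with a ratio of 0.744. PSMA4 was lower in CN indirect SPN-like nuclei, at 15.9 CPM in PD and 24.9 CPM in CT, and PSMA5 in PUT direct SPN-like nuclei, at 19.8 CPM in PD and 30.8 CPM in CT.

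The catalytic beta subunits divided. PSMB5 (chymotrypsin-like activity) and PSMB6 (caspase-like activity) each had a negative log2 ratio in 7 of 8 pairs. They were lower by the fold in 3 and 4, beside 8.33% to 18.0% of all genes across the 21 pairs. PSMB6 held 10.2 CPM in PD and 20.2 CPM in CT oligodendrocyte-like nuclei of PUT (-0.97) and 13.3 CPM in PD and 21.1 CPM in CT those of CN (-0.67). PSMB7 (trypsin-like activity) had a positive log2 ratio in 15 of 19 pairs, and was higher by the fold in 3 and lower in 0. Across the 21 pairs, 4.25% to 18.0% of all genes were higher by the fold. Of the 3, SN oligodendrocyte precursor-like nuclei (28 and 23 UMIs) and CN astrocyte-like nuclei (35 and 30 UMIs) had intervals of the ratio that include 1. PSMB7 held 76.7 CPM in PD and 48.4 CPM in CT undivided SPN-like nuclei of CN (0.65), which fell in different clusters in PD and CT, 70.7 CPM in PD and 57.8 CPM in CT indirect SPN-like nuclei of CN (0.29), and 90.5 CPM in PD and 80.7 CPM in CT dopaminergic neuron-like nuclei (0.17).

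The structural beta subunits were lower in places. PSMB1 stood at 9.98 CPM in PD and 18.1 CPM in CT direct SPN-like nuclei of PUT (-0.85), and at 10.98 CPM in PD and 18.1 CPM in CT indirect SPN-like nuclei there (-0.72). PSMB4 held 14.1 CPM in PD and 27.1 CPM in CT oligodendrocyte-like nuclei of PUT (-0.93), but 10.8 CPM in PD and 7.63 CPM in CT oligodendrocyte-like nuclei of SN (0.50). PSMB2 was higher in PUT other neuron-like nuclei, at 33.7 CPM in PD and 18.99 CPM in CT, from 31 and 25 UMIs. PSMB10, the inducible partner of the immunoproteasome left in the set, held 7.40 CPM in PD and 7.41 CPM in CT oligodendrocyte-like nuclei of SN (0.00). It was lower by the fold in 3 of 7 pairs, beside 8.33% to 18.0% of all genes across the 21 pairs, and had a negative log2 ratio in 5. PSMB10 held 2.34 CPM in PD and 4.15 CPM in CT direct SPN-like nuclei of PUT (-0.80), from 15 and 36 UMIs and with an interval of the ratio that includes 1.

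In the 19S base, the ATPases unfold the substrate and thread it into the core. Their sum was lower in CN direct SPN-like nuclei, at 68.2 CPM in PD and 80.1 CPM in CT (ratio 0.851, 0.772 to 0.939), and in CN indirect SPN-like nuclei, at 68.4 CPM in PD and 81.1 CPM in CT (0.843, 0.762 to 0.932). PSMC5 held 5.69 CPM in PD and 10.3 CPM in CT direct SPN-like nuclei of CN (-0.85), and PSMC1 15.01 CPM in PD and 25.0 CPM in CT other neuron-like nuclei of SN (-0.73). In PUT direct and indirect SPN-like nuclei the same sum was 1.09 and 1.06 times that of CT, with intervals that include 1, and in oligodendrocyte-like nuclei it was 0.849 (0.750 to 0.959) in PUT and 0.780 (0.652 to 0.936) in CN. PSMD2, a scaffold of the base, was higher in SN, with 67.1 CPM in PD and 44.9 CPM in CT dopaminergic neuron-like nuclei (0.58, ratio 1.25 to 1.79), 60.4 CPM in PD and 47.2 CPM in CT other neuron-like nuclei (0.35), and 45.8 CPM in PD and 34.8 CPM in CT oligodendrocyte-like nuclei (0.40). In CN it was lower, with 44.2 CPM in PD and 63.2 CPM in CT other neuron-like nuclei (-0.51). The ubiquitin receptor PSMD4 held 22.4 CPM in PD and 41.6 CPM in CT oligodendrocyte-like nuclei of CN (-0.90) and 30.9 CPM in PD and 47.3 CPM in CT those of PUT (-0.61), against 39.7 CPM in PD and 40.0 CPM in CT those of SN (-0.01).

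Of the 8 lid genes, 4 passed the fold in a pair, each in 1. PSMD14 was measured in all 21 pairs and passed the fold in 0, between -0.33 in CN oligodendrocyte-like and PUT undivided SPN-like nuclei and 0.28 in CN microglia or macrophage-like nuclei. In SN oligodendrocyte-like nuclei it held 171 CPM in PD and 147 CPM in CT (0.22). PSMD12 held 36.0 CPM in PD and 17.4 CPM in CT undivided SPN-like nuclei of CN (1.02), from 38 and 14 UMIs and in different clusters for PD and CT. PSMD8 was the single member higher in CN oligodendrocyte-like nuclei, at 13.05 CPM in PD and 8.79 CPM in CT (0.54). It rested on 53 and 15 UMIs, with an interval of the ratio that includes 1. PSMD3 was lower in undivided SPN-like nuclei of CN, at 28.4 CPM in PD and 44.7 CPM in CT (-0.65). These too lay in different clusters for PD and CT, and the interval of the PSMD3 ratio includes 1. PSMD11 was lower in indirect SPN-like nuclei of PUT, at 9.75 CPM in PD and 14.1 CPM in CT (-0.53). The sum of the 8 lid genes lay at 0.864 (0.788 to 0.948) in CN oligodendrocyte-like nuclei and at 1.09 (1.03 to 1.15) in those of SN.

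Of the genes of the 11S activator, PSME1 was higher by the fold in 2 of 5 measured pairs and lower in 0. PSME2 was higher in 3 of 8 and lower in 1. In the pairs where either was higher, 7.02% to 18.0% of all genes were. In the pair where PSME2 was lower, 16.4% of all genes were. PSME1 held 37.6 CPM in PD and 21.2 CPM in CT oligodendrocyte-like nuclei of SN (0.82, ratio 1.47 to 2.14), from 274 and 195 UMIs, and PSME2 held 8.91 CPM in PD and 5.88 CPM in CT there (0.60). PSME2 held 9.33 CPM in PD and 5.39 CPM in CT dopaminergic neuron-like nuclei (0.79), from 36 and 28 UMIs, and PSME1 58.7 CPM in PD and 33.6 CPM in CT microglia or macrophage-like nuclei of SN (0.80), with an interval of the ratio that includes 1. Within the cluster that both SN libraries share, PSME1 held 32.7 CPM in PD and 32.6 CPM in CT microglia or macrophage-like nuclei. These values rest on 5 and 21 UMIs, too few to say whether PD and CT differ there. In the cluster made almost wholly of PD nuclei, PSME1 held 71.3 CPM in PD, from 25 UMIs. PSME2 was also higher in indirect SPN-like nuclei of PUT, at 10.7 CPM in PD and 7.55 CPM in CT (0.50, ratio 1.02 to 1.98), and lower in oligodendrocyte-like nuclei of CN, at 7.63 CPM in PD and 11.7 CPM in CT (-0.63). In oligodendrocyte-like nuclei of PUT, PSME1 held 14.9 CPM in PD and 12.8 CPM in CT, and in those of CN 16.5 CPM in PD and 17.6 CPM in CT, with intervals that overlap. Among SN oligodendrocyte-like clusters, PSME1 held 48.9 CPM in PD and 16.5 CPM in CT in one, 41.3 CPM in PD and 21.9 CPM in CT in another, 37.0 CPM in PD and 26.4 CPM in CT in one more, and 19.5 CPM in PD and 20.9 CPM in CT in one of the others. In the SN oligodendrocyte-like nuclei, the 12 microglia or macrophage markers summed to 72.8 CPM in PD and 84.7 CPM in CT, with 5 higher in PD, and the 8 lymphocyte markers to 42.4 CPM in PD and 34.4 CPM in CT, with 6 higher in PD. None of these markers was at 0, and the part of such RNA in the PSME1 and PSME2 values was not tested.

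Among the 12 members measured in microglia or macrophage-like nuclei of SN, 4 were higher and 2 lower. PSMC2, an ATPase, held 76.3 CPM in PD and 32.0 CPM in CT (1.24), PSME4 213 CPM in PD and 121 CPM in CT (0.82), and PSMF1, the regulator PI31, 64.6 CPM in PD and 36.6 CPM in CT (0.81). PSMA1 was lower, at 258 CPM in PD and 442 CPM in CT (-0.77). The class was made of different clusters in the 2 libraries: 664 of its 678 CT nuclei fell in one cluster, which held 150 PD nuclei, and 367 of its 525 PD nuclei in another that macrophage genes such as F13A1, CD74 and GPNMB led. In the first cluster PSME4 held 229 CPM in PD and 123 CPM in CT, and PSMA1 340 CPM in PD and 449 CPM in CT. PSMC2 held 105 CPM in PD and 31.1 CPM in CT there, from 16 and 20 UMIs. PSMF1 held 26.2 CPM in PD and 37.3 CPM in CT, from 4 and 24 UMIs. In the second, PD nuclei held 228 CPM of PSMA1, 65.6 CPM of PSMC2 and 82.7 CPM of PSMF1. The 12 microglia or macrophage markers summed to 4115 CPM in PD and 5891 CPM in CT of the class, with 2 higher in PD. The 8 lymphocyte markers summed to 84.2 CPM in PD and 21.4 CPM in CT, with 8 higher in PD and 3 at 0 in CT, and the part of either list in these values was not tested.

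PSMF1 passed the fold in that pair alone of 15. PSME3 had a negative log2 ratio in 7 of 9 pairs and was lower by the fold in CN oligodendrocyte-like nuclei, at 10.6 CPM in PD and 15.8 CPM in CT (-0.59). PSME4 was lower in PUT indirect SPN-like nuclei, at 158 CPM in PD and 194 CPM in CT (-0.30), and higher in SN oligodendrocyte-like nuclei, at 187 CPM in PD and 152 CPM in CT (0.29), neither past the fold. It was lower by the fold in 2 of 21 pairs, both with intervals of the ratio that include 1. These were PUT astrocyte-like nuclei (-0.61, from 27 PD and 66 CT UMIs) and CN microglia or macrophage-like nuclei (-0.54, from 53 and 32 UMIs). PSMC3IP, the gene matched by letters alone, held 6.73 CPM in PD and 10.8 CPM in CT indirect SPN-like nuclei of PUT (-0.67). It was lower by the fold in 3 of 7 pairs, beside 8.33% to 18.0% of all genes across the 21 pairs.

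Between regions, the sum in oligodendrocyte-like nuclei was ordered differently in PD and CT. In PD the sum was 1642 CPM in SN (1613 to 1672), 1581 CPM in PUT (1541 to 1623) and 1467 CPM in CN (1430.1 to 1505). In CT it was 1561 CPM in SN (1536 to 1587), 1747 CPM in PUT (1709 to 1785) and 1758 CPM in CN (1696 to 1822). The PUT and CN intervals of CT overlap, and in PD those of SN and PUT overlap. Among nuclei with at least 1000 genes the sums were 1539, 1553 and 1423 CPM in PD and 1528, 1687 and 1584 CPM in CT of SN, PUT and CN. Direct SPN-like nuclei held 1209 CPM in PUT and 1144 CPM in CN in PD, and 1306 and 1276 CPM in CT.

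Of 35 other genes of the ubiquitin-proteasome pathway in the annotation (41 chosen), 33 to 34 were measured in 9 of the pairs. In each of these 9 pairs 0 were higher by the fold. In PUT, 8 of 34 were lower in oligodendrocyte-like nuclei (17.7% of all genes), 4 of 34 in direct SPN-like nuclei (11.7%) and 2 of 34 in indirect SPN-like nuclei (11.4%). In CN, 5 of 34 were lower in direct SPN-like nuclei (17.9%), 4 of 34 in indirect SPN-like nuclei (18.0%) and 4 of 33 in oligodendrocyte-like nuclei (16.4%). In SN, 2 of 34 were lower in dopaminergic neuron-like nuclei (8.33%), 1 of 33 in other neuron-like nuclei (9.71%) and 1 of 34 in oligodendrocyte-like nuclei (12.4%). These shares lie near or below those of all genes, apart from PUT oligodendrocyte-like nuclei, where the share is somewhat above. UBB, a polyubiquitin gene, supplies ubiquitin. In PUT oligodendrocyte-like nuclei UBB held 36.2 CPM in PD and 86.1 CPM in CT (-1.25). UBB was lower by the fold in 7 of 11 pairs. The share of all genes lower by the fold across the 21 pairs, 8.33% to 18.0%, stands beside this count and that of POMP. POMP, which acts with the PSMG chaperones in core assembly, was lower in 5 of 11 pairs, with 19.6 CPM in PD and 64.1 CPM in CT microglia or macrophage-like nuclei of SN (-1.66) and 13.8 CPM in PD and 23.4 CPM in CT direct SPN-like nuclei of CN (-0.76). In SN, the autophagy receptor SQSTM1 held 74.7 CPM in PD and 121 CPM in CT dopaminergic neuron-like nuclei (-0.70) and 62.1 CPM in PD and 92.7 CPM in CT other neuron-like nuclei (-0.58). PAAF1, a 19S assembly factor, held 285 CPM in PD and 420.4 CPM in CT oligodendrocyte-like nuclei of SN (-0.56). NFE2L1, the factor that raises transcription of proteasome genes when the proteasome is inhibited, was higher in PUT other neuron-like nuclei, at 52.1 CPM in PD and 26.6 CPM in CT (0.97).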

How the data were processed

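Single-nucleus RNA was sequenced with 10x Chromium 3′ chemistry, per the labels' protocols. The deposited matrices hold raw UMI counts per gene and barcode. The authors ran Cell Ranger 7.0.1, per the submitters' processing notes. These notes name hg38, while the gene identifiers are those of Macaca fascicularis, and the extract protocol names Macaca mulatta. Where reads are shared by overlapping or near-identical genes, the counting rule is not given in the sources used here.

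The group of a matrix was read from its file name. Barcodes were dropped below 500 genes, above 5% mitochondrial UMIs or above a Scrublet score of 0.25. That cutoff took 2341 barcodes, because Scrublet's own thresholds marked 574, 568 of them in CN PD. No correction for free RNA was made. Clustering used scanpy 1.11.5 (2000 variable genes, 30 components, 15 neighbours, Leiden resolution 1.0, then 0.5 within clusters), with the proteasome, pathway and mitochondrial genes left out of the variable genes. Clusters were named from 122 markers in the annotation, by levels relative to the highest cluster. Mixed (3293) and unnamed (740) nuclei entered no class. The naming rule and the level of 0.35 that divides direct from indirect SPNs were set after the data were seen.

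UMIs were summed per class and library. Ratios have exact conditional binomial intervals and levels exact Poisson intervals. Named members are a fixed set plus up to 3 per direction and pair, ranked by the bound of the interval closest to 1, the members past the fold in the most pairs, and up to 2 pathway genes per direction. PSMA1, SLC22A23, other members named outside that rule, the alternatives without single genes and the values by cluster were chosen after their values were seen. Members and lists were chosen with earlier results of these data known. Poisson counts were simulated from the profile of SN CT oligodendrocyte-like nuclei (11738 genes), with no variation between animals, libraries or clusters. In them 95.4% of intervals held the true ratio. The fold was passed by 98% of genes changed by a log2 of 1, 51% of those changed by 0.5 and 2.96% of unchanged genes. These shares cover counting error only and are no rate of false calls in the real data. One gene of the pathway list is not reported here by name.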

Additional observations from a re-analysis of the deposited data

Results flagged for a closer look

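The sum of the proteasome genes in oligodendrocyte-like nuclei had ratios of PD over CT of 1.052 in SN, 0.905 in PUT and 0.835 in CN, so that intervals lay above 1 in SN and below 1 in the striatum. In these nuclei PSMB4 had a ratio of 1.42 in SN and 0.520 in PUT, but 1.03 in CN, with an interval that includes 1. PSMA6 had 1.47 in SN and 0.744 in CN, but 1.19 in PUT, with an interval that includes 1. PSMD2 had a ratio of 1.28 in SN and 0.699 in CN other neuron-like nuclei. With 1 library per group the difference between regions was not tested. Without PSME4, PSMD14 and PSMD1 the SN oligodendrocyte-like sum was 0.990.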

How the results depend on the processing

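No paired analysis was possible because each region and treatment is 1 matrix with no sample map. With 1 library per group, no replicate could be left out either. Counting error is the only error given, and most members hold under 50 UMIs in classes of few nuclei. Members past the fold numbered 87 over all pairs (19 higher and 68 lower of 462 measured), 163 with at least 20 UMIs per gene, 25 with at least 200, 57 among nuclei with at least 1000 genes and 48 after thinning to 800 UMIs. Across the pairs, 4.25% to 18.0% of all genes were higher and 8.33% to 18.0% lower, and PSMG4 alone gave 11 of the 68 lower. Sum ratios that moved beyond their interval were, with nuclei of at least 1000 genes, SN oligodendrocyte-like 1.01, PUT microglia or macrophage-like 0.742 and CN oligodendrocyte-like 0.898. After thinning they were SN dopaminergic neuron-like 1.495 and PUT direct SPN-like 0.859. Scaled by the median ratio of genes with at least 200 UMIs, CN direct SPN-like nuclei gave 0.976 and indirect SPN-like nuclei 0.951. Stratified by cluster, CN direct SPN-like nuclei gave 0.857, indirect SPN-like 0.844, other neuron-like 1.01 and oligodendrocyte-like 0.873. In settings chosen after the data were seen, sums without PSME4, PSMD14 and PSMD1 were 0.990 in SN oligodendrocyte-like nuclei, which turns their direction, 0.858 in PUT oligodendrocyte-like and 0.869 in CN direct SPN-like nuclei. Sums without PSMG4 were 1.11 in SN oligodendrocyte-like and 0.895 in CN indirect SPN-like nuclei. Of 53 named ratios, 5 turned round after thinning: PSMG4 in SN dopaminergic neuron-like (0.70), PSMD1 in PUT microglia or macrophage-like (0.28), PSMB4 in CN indirect SPN-like (0.50), PSMA3 in CN undivided SPN-like (0.43) and PSMB7 in CN astrocyte-like nuclei (-0.13). Before thinning, no library held more than 197 UMIs of the gene in these 5 pairs, and thinning left fewer, so the thinned ratios are imprecise. The cause was not tested.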
